A study of Mus musculus with 43 samples.

Results

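The thrombospondin family comprises 5 secreted glycoproteins of the extracellular matrix, encoded by Thbs1, Thbs2, Thbs3, Thbs4 and Comp. These genes were taken by symbol from a table of 21938 genes measured in 43 mouse lungs, and all 5 were among the 14836 genes that passed the filter on low counts. The family was chosen by its known higher levels in bleomycin against control lungs, so levels in the comparisons with control mice are descriptions without a test. The nintedanib comparison and the relations within groups did not choose the members, and tests are given there. The gene lists set beside the members were chosen with earlier results of these data known.

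RNA sequencing read counts came from the inferior lung lobe, 1 library per mouse. The group CTRL Vehicle held 10 control mice given vehicle, BLEO-IPF Nintedanib Vehicle held 16 bleomycin mice given the vehicle of nintedanib, and BLEO-IPF Nintedanib held 17 bleomycin mice given nintedanib. Bleomycin breaks DNA and is given to rodents to injure the lung and model idiopathic pulmonary fibrosis, and nintedanib inhibits the receptor kinases of VEGF, FGF and PDGF. The sources used here give no strain, sex, age, dose, route or day, and the vehicle of the control mice is not named, so a difference in vehicle and the effect of bleomycin cannot be told apart. Mice carry numbers that only name them within a group. Libraries held 13138281 to 19111457 counts. The summed level of 11 lung markers, among them Sftpc, Ager and Cldn5, was 27533 to 64357 CPM (read counts scaled to library size) in every library, as the tissue label states. Adipoq, a hormone gene of fat cells, was at 1 CPM or more in 8 of 10 control, 0 of 16 vehicle and 5 of 17 nintedanib libraries, and some results are also given without these libraries.

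Thrombospondins fall into 2 structural classes. Thbs1 and Thbs2 encode trimers with type 1 repeats, which bind the receptors CD36 and CD47 and restrain the growth of blood vessels; thrombospondin 1 is also stored in platelet granules and can free TGF-beta from its latent complex, the step before the cytokine drives fibroblasts to make collagen. Thbs3, Thbs4 and Comp encode pentamers without these repeats, best known from cartilage, tendon and muscle, and COMP binds collagen and aids its secretion and fibre assembly. Thrombospondin 2 is known for limiting matrix metalloprotease activity through clearance of the enzyme, and thrombospondin 4 acts in tendon matrix and in stressed heart muscle.

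In the GRCm38 build, Thbs1 (ENSMUSG00000040152) lies on chromosome 2 from 118111876 to 118127133 on the plus strand. Thbs2 (ENSMUSG00000023885) lies on chromosome 17 from 14665500 to 14694235 on the minus strand. Thbs3 (ENSMUSG00000028047) lies on chromosome 3 from 89215180 to 89226837 on the plus strand, inside the span of Mtx1 on the opposite strand (89209081 to 89227088). The labels describe a directional library kit, but no source used here states the strand setting of the counting, so reads of Thbs3 and Mtx1, a mitochondrial import gene, may not have been separated. Mtx1 itself was at 10.3 to 17.7 CPM across all libraries. Thbs4 (ENSMUSG00000021702) lies on chromosome 13 from 92751590 to 92794818 on the minus strand, and Comp (ENSMUSG00000031849) on chromosome 8 from 70373558 to 70382066 on the plus strand.

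The 250 bases before the RefSeq start (GRCm38.p6) are shown for Thbs2, Thbs3 and Thbs4, the 3 of 5 members matched in the promoter table, so that the letters before the 2 genes that varied most between bleomycin lungs, Thbs2 and Thbs4, can be set beside those of Thbs3. Thbs1 and Comp had no entry. Sequences read 5′ to 3′ on the gene's strand, and capitals mark matches, on either strand, to CATTCC (bound by TEAD factors), CAGAC (SMAD), TGANTCA (AP-1), TATAAA (the general initiation factors), CCAAT (NF-Y) and GGGCGG (SP and KLF factors).
Thbs2, chr17:14694263-14694512, minus strand: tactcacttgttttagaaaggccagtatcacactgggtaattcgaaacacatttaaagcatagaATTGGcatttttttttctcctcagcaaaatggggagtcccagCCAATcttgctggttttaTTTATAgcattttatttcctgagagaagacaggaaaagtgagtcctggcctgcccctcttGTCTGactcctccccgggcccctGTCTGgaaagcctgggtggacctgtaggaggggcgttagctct
Thbs3, chr3:89214930-89215179, plus strand: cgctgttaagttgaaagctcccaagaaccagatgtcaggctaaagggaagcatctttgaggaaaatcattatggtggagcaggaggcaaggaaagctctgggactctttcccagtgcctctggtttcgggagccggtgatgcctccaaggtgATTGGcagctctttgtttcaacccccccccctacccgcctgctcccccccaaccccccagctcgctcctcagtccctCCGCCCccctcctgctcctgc
Thbs4, chr13:92794819-92795068, minus strand: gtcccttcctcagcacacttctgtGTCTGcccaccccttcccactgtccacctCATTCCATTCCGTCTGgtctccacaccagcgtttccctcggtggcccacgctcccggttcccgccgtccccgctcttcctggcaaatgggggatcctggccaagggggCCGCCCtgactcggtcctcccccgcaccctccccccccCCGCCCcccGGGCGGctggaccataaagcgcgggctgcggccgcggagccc
The 3 stretches differed in base composition, with 46.8% G and C for Thbs2, 58.8% for Thbs3 and 70.8% for Thbs4, against a median of 52.4% over 32851 mouse promoters. Counted from the start, Thbs2 held CAGAC matches at -66 and -43, a TATAAA match at -126 and CCAAT matches at -186 and -144. Thbs3 held a CCAAT match at -98 and a GGGCGG match at -21. Thbs4 held CATTCC matches at -197 and -192, which share 1 base, CAGAC matches at -226 and -186, the latter directly after the CATTCC pair, and GGGCGG matches at -89, -51 and -42. No TGANTCA match was found in these 3 windows. Windows of the same length held CATTCC in 12.6% of all promoters, CAGAC in 42.2%, TGANTCA in 6.75%, TATAAA in 12.4%, CCAAT in 33.8% and GGGCGG in 32.7%. A match describes these letters only.

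Among the trimers, Thbs1 was the more abundant per exon length in every lung. In control lungs it ranged from 96.3 CPM (mouse 7) over a median of 164 to 491 (mouse 4), in vehicle-treated bleomycin lungs from 165 (mouse 10) over 450 to 801 (mouse 4), and in nintedanib lungs from 239 (mouse 7) over 419 to 739 (mouse 10). These CPM values carry the TMM scaling of edgeR. Control mouse 4 stood above the other control mice, the next of which was at 234 CPM, and the groups overlapped: only 6 of 16 vehicle and 4 of 17 nintedanib lungs exceeded it. In the fit over all 43 libraries the log2 fold change of bleomycin vehicle over control was 1.28 ± 0.23 (SE), a 2.42-fold higher level, and that of nintedanib over control was 1.17 ± 0.22. Without control mouse 4 these values were 1.52 and 1.40.

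Thbs2 was scarce in control lungs, where it ranged from 1.65 CPM over a median of 3.23 to 4.19. It ranged from 3.74 (mouse 13) over 10.7 to 169 CPM (mouse 4) in vehicle lungs and from 3.91 (mouse 9) over 7.59 to 44 CPM (mouse 8) in nintedanib lungs. Vehicle mouse 4 stood far above every other lung, the next vehicle mouse being at 29.9 CPM, and 14 of 16 vehicle and 15 of 17 nintedanib lungs lay above the highest control lung. The log2 fold change over control was 2.93 ± 0.57 (SE) for vehicle, 7.61-fold, and 2.06 ± 0.55 for nintedanib; without vehicle mouse 4 the first was 2.10. That lung was also the highest for Col1a1, the main fibrillar collagen chain, at 3999 CPM of the library total against 1091 in the next vehicle lung, and for the activated fibroblast genes Grem1 (133 CPM) and Cthrc1 (49 CPM).

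Of the pentamers, Thbs3 was the one with an even level in control lungs, from 85.4 CPM over a median of 101 to 114, and its log2 SD of 0.14 was below the median of 0.16 over all tested genes. It ranged from 63.1 (mouse 4) over 198 to 285 CPM (mouse 16) in vehicle lungs and from 83.2 (mouse 8) over 195 to 277 CPM (mouse 12) in nintedanib lungs. The level was about as far above control in both bleomycin groups, with 14 of 16 and 15 of 17 lungs above the highest control, yet the lungs with the most Thbs2, vehicle mouse 4 and nintedanib mouse 8, had the least Thbs3 of their group. Vehicle mouse 4 lay below every control lung, and nintedanib mouse 8 at the level of the lowest control lung, both at 85.6 CPM when scaled by library totals. The log2 fold change over control was 0.90 ± 0.18 (SE) for vehicle and 0.90 ± 0.18 for nintedanib.

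Thbs4 separated the bleomycin lungs from the control lungs completely. Control libraries held 43 Thbs4 reads in all, 2 of 10 held none, and the level ran from 0 over a median of 0.147 to 0.817 CPM. It ranged from 1.14 (mouse 12) over 6.6 to 40.5 CPM (mouse 6) in vehicle lungs and from 1.52 (mouse 6) over 9.96 to 41.6 CPM (mouse 10) in nintedanib lungs. Each of the 33 bleomycin lungs lay above all 10 control lungs, a separation upward shown by 3.7% of tested genes for vehicle and 4.31% for nintedanib. The log2 fold change over control was 5.30 ± 0.69 (SE) for vehicle, 39.5-fold, and 5.52 ± 0.69 for nintedanib, both against the few control reads.

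Comp, which encodes cartilage oligomeric matrix protein, stayed near the limit of detection. In control lungs it held 1 to 14 reads, from 0.0553 over a median of 0.612 to 0.831 CPM, in vehicle lungs it ran from 0.548 over 1.33 to 1.98 CPM, and in nintedanib lungs from 0.133 over 1.05 to 4.14 CPM. The groups overlapped, and 11 of 16 vehicle and 11 of 17 nintedanib lungs lay above the highest control lung. Nintedanib mouse 1 stood apart at 77 Comp reads, the next lung of its group being at 2.31 CPM. The same library was the highest of its group for the cartilage genes Col2a1 (2.72 CPM of the library total, next 0.826) and Acan (2.3 CPM, next 0.3) and for the summed airway cartilage markers (44.4 CPM, median 14). In control lungs that sum had a median of 37.3 and reached 45.7 CPM. The part of cartilage in the Comp level of nintedanib mouse 1 was not tested. The log2 fold change over control was 1.23 ± 0.35 (SE) for vehicle and 1.18 ± 0.35 for nintedanib, the latter 0.92 without nintedanib mouse 1.

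**Figure D1:**
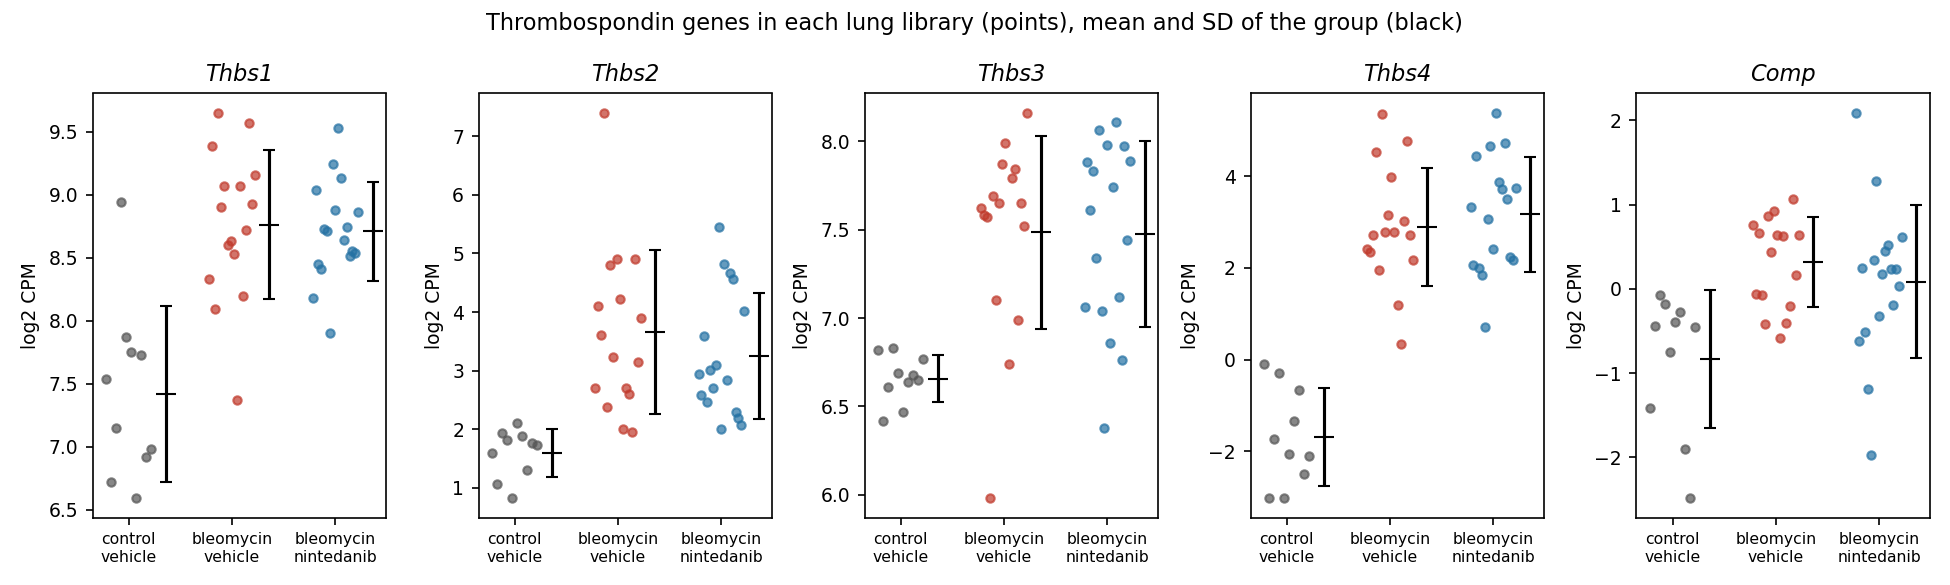
Level of each thrombospondin gene in each of 43 lung libraries, as log2 CPM (y axis, own scale per gene) for control vehicle (10), bleomycin vehicle (16) and bleomycin nintedanib (17) mice; points are mice, black marks the mean and bars the SD. Thbs4 shows no overlap between control lungs (mean -1.69) and bleomycin lungs (means 2.89 and 3.17), while the single highest Thbs2 point and the single lowest Thbs3 point are both vehicle mouse 4.

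On the log2 CPM scale the means ± SD of control, vehicle and nintedanib lungs were 7.42 ± 0.70, 8.76 ± 0.59 and 8.71 ± 0.39 for Thbs1. They were 1.60 ± 0.41, 3.66 ± 1.41 and 3.26 ± 1.07 for Thbs2 and 6.66 ± 0.14, 7.48 ± 0.54 and 7.48 ± 0.52 for Thbs3. Thbs4 and Comp were at -1.69 ± 1.07, 2.89 ± 1.29 and 3.17 ± 1.25, and at -0.84 ± 0.82, 0.32 ± 0.54 and 0.08 ± 0.91. In the comparison with control, 57.9% of all tested genes differed in vehicle lungs (29.5% higher) and 53.2% in nintedanib lungs (28.1% higher) by edgeR at a Benjamini-Hochberg adjusted p under 0.05. These shares are the background for the members' higher levels, from which nothing is read since the levels proposed the family. By log2 fold change of vehicle over control, Thbs4 stood 9th, Thbs2 82nd, Thbs1 626th, Comp 674th and Thbs3 1020th from the top of 14836 genes. In whole lobes, fewer cells of a type and less RNA per cell cannot be told apart. Both comparisons with control share the control libraries; with the Adipoq libraries left out, 2 control lungs remained and the log2 fold changes of vehicle over control were 1.47 for Thbs1, 3.67 for Thbs2, 1.01 for Thbs3 and 1.15 for Comp, while both remaining control libraries held 0 Thbs4 reads.

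The lungs of bleomycin mice differed widely among themselves in Thbs2 and Thbs4. The log2 SD of Thbs2 exceeded that of 99.6% of tested genes in vehicle lungs and of 98.7% in nintedanib lungs, and that of Thbs4 exceeded 99.5% and 99.2%. Thbs3 stood at 84.4% and 85.9%, Thbs1 at 87.1% and 77.5%, and Comp, whose low counts add spread, at 84.2% and 97.6%.

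Per kilobase of exon, the family in control lungs consisted almost wholly of Thbs1 and Thbs3, with a median share of 54.2% and 44.1% of the summed family level. Their order did not hold across mice there, since Thbs1 was the higher in 6 of 10 control lungs, but it was the higher in 16 of 16 vehicle and 17 of 17 nintedanib lungs, where its median shares were 61.7% and 59% and those of Thbs3 36.2% and 36.3%. Thbs2 made up a median of 0.916%, 1.28% and 1.07% in control, vehicle and nintedanib lungs and reached 13.7% in vehicle mouse 4. Thbs4 made up 0.0989%, 2.04% and 3.04%, and its place in the order differed between groups: per length it was above Thbs2 in 0 of 10 control, 10 of 16 vehicle and 15 of 17 nintedanib lungs, and above Comp in 2 of 10, 16 of 16 and 17 of 17. Comp stayed at 0.329%, 0.354% and 0.305%. Thbs3 lay above Thbs2 in 10 of 10, 15 of 16 and 17 of 17 lungs, the exception being vehicle mouse 4.

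**Figure D2:**
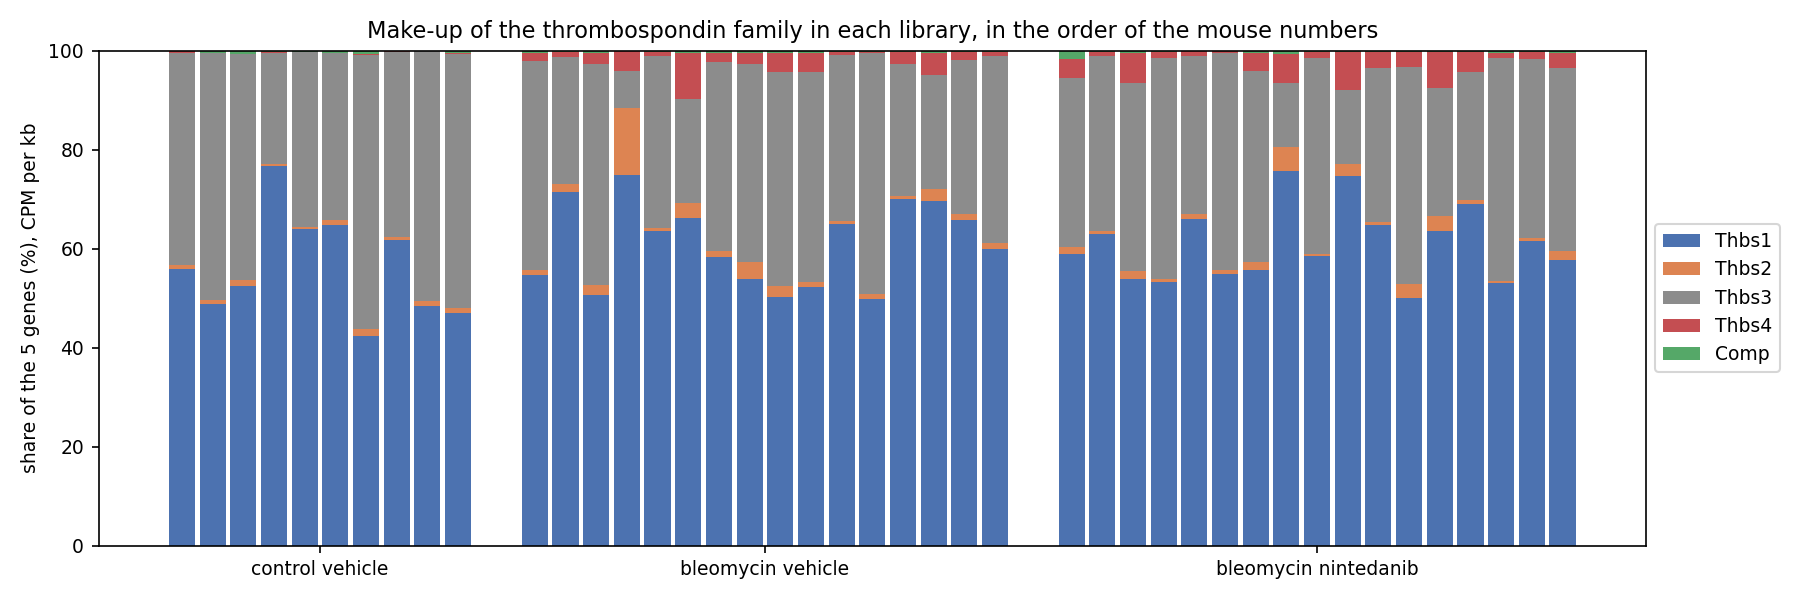
Make-up of the thrombospondin family in each library, as the share (%) of the summed CPM per kilobase of exon taken by each of the 5 genes; bars are mice, in the order of their numbers within the 3 groups. Thbs1 and Thbs3 together fill most of each bar, the Thbs4 band is visible in bleomycin lungs (medians 2.04% and 3.04%), and the wide Thbs2 band (13.7%) belongs to vehicle mouse 4.

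Nintedanib against vehicle was the comparison in which the members were tested. None of the 5 genes passed the threshold: 0 of 5 were called by edgeR's quasi-likelihood test at a Benjamini-Hochberg adjusted p under 0.05, where 7.31% of all tested genes were (3.21% higher, 4.1% lower, or 476 and 608 genes, and 369 and 813 genes when scaled by library totals alone). At an unadjusted p under 0.05 the count was 1 of 5, Thbs2, beside 24.3% of all tested genes, and by DESeq2 it was 0 of 5 after adjustment, beside 9.26%. A p that misses the threshold does not show that the levels were alike, and the 95% intervals below give the differences these lungs leave possible.

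Thbs2 had the lowest estimate, a log2 fold change of -0.86 ± 0.42 (SE, 16 and 17 mice), with a 95% interval of -1.71 to -0.02 and an edgeR adjusted p of 0.20 (unadjusted 0.046). The medians were 10.7 and 7.59 CPM, and 11 of 17 nintedanib lungs lay below the vehicle median. This estimate depended most on 1 lung: without vehicle mouse 4 it was -0.07 (edgeR adjusted p 0.92). Over all lungs left out in turn it ran from -1.11, without nintedanib mouse 8, to -0.07, with edgeR adjusted p from 0.079 to 0.92.

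Thbs1 differed by -0.11 ± 0.19 in log2 (95% interval -0.48 to 0.26, edgeR adjusted p 0.76), with 11 of 17 nintedanib lungs below the vehicle median. Its estimate without the Adipoq libraries was -0.04 (edgeR adjusted p 0.92). Thbs3 was closest to no difference, at -0.01 ± 0.15 (interval -0.31 to 0.30, adjusted p 0.99), with 8 nintedanib lungs above and 9 below the vehicle median; without the Adipoq libraries the estimate was 0.19 (adjusted p 0.52). The Thbs4 estimate was 0.22 ± 0.39 (interval -0.57 to 1.01, adjusted p 0.77) with 10 above and 7 below, and it ran from 0.00 without nintedanib mouse 10 to 0.51 without vehicle mouse 6. Comp was at -0.05 ± 0.28 (interval -0.61 to 0.51, adjusted p 0.94) although 14 of 17 nintedanib lungs lay below the vehicle median; without nintedanib mouse 1 the estimate was -0.31 (adjusted p 0.49), and without the Adipoq libraries, which include mouse 1, it was -0.39 (adjusted p 0.34).

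**Figure D3:**
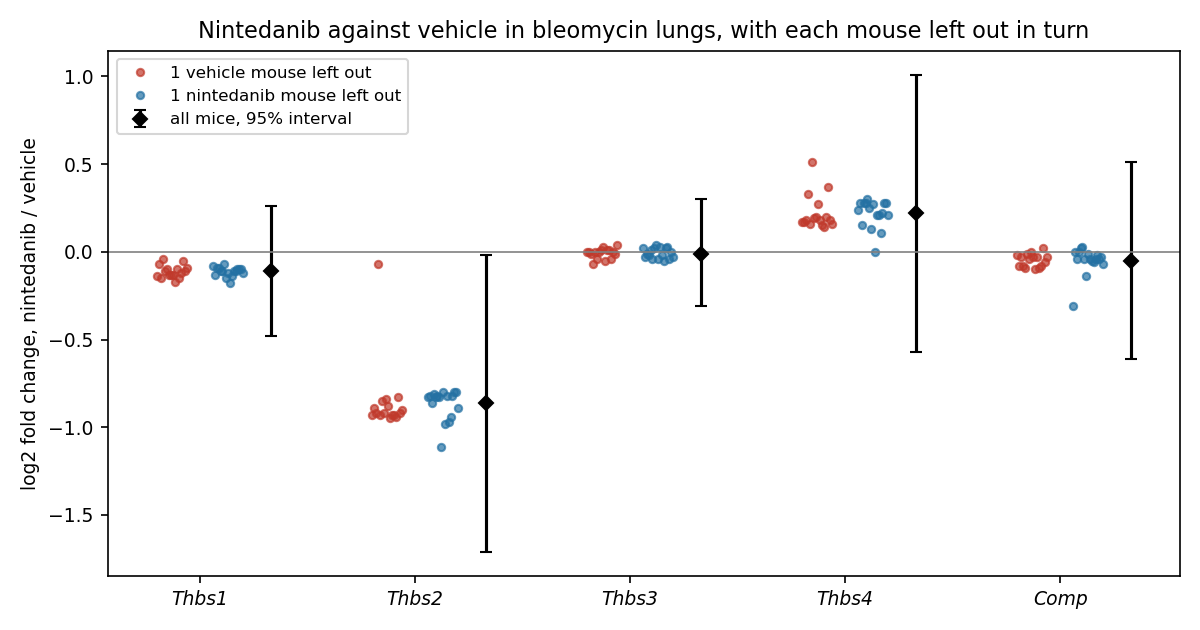
Log2 fold change of nintedanib over vehicle for each thrombospondin gene (y axis) with all mice (diamonds, bars are 95% intervals) and with each of 16 vehicle or 17 nintedanib mice left out in turn (points). The Thbs2 point farthest from the estimate of -0.86 is the one without vehicle mouse 4, at -0.07. The lowest is the one without nintedanib mouse 8, at -1.11. None of the 5 genes was called.

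Within the groups, each pair of members and each member with Col1a1, Ccn2 (a matrix growth factor gene induced by TGF-beta) and Pf4 (a platelet chemokine gene) was correlated over mice, 75 relations in all, with permutation p-values from 100000 resamples adjusted by the Benjamini-Hochberg method. Pearson's r passed the threshold in 6 of 75, and Spearman's rho held in 2 of these 6, both of Thbs2 with Col1a1.

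Thbs2 followed Col1a1 closely among bleomycin lungs. In the 16 vehicle lungs r was 0.95 and rho 0.91, with a permutation p of 1e-05 for r, the smallest 100000 resamples can give, and an adjusted p of 0.00037. In the 17 nintedanib lungs r was 0.94 and rho 0.89 (adjusted permutation p 0.00037). Without the 2 lungs whose Col1a1 was farthest from the median, r was 0.88 and 0.90, and within the largest number series of library names it was 0.95 and 0.96. In the 10 control lungs r was 0.23 (adjusted permutation p 0.69) and rho -0.05; that the relation differed between control and bleomycin lungs was not tested. The summed level of 15 activated fibroblast markers, Col1a1 among them, ran from 1035 to 7551 CPM in vehicle lungs with the highest in mouse 4; their part in the relation was not tested.

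Thbs4 was related to Thbs2 in nintedanib lungs, with r = 0.75 (adjusted permutation p 0.012) and rho 0.68 (adjusted 0.066). Without the 2 lungs farthest from the median of Thbs2, r was 0.65 (adjusted 0.1). In vehicle lungs r was 0.66 (adjusted permutation p 0.051). With Col1a1, Thbs4 had r = 0.66 and 0.63 in vehicle and nintedanib lungs (adjusted permutation p 0.051 in both). In control lungs r was 0.86 (adjusted 0.041), on 43 Thbs4 reads, and 0.77 (adjusted 0.22) without the 2 lungs farthest from the median of Col1a1. Thbs4 and Comp had r = 0.65 in nintedanib lungs (adjusted permutation p 0.049), and 0.59 (adjusted 0.16) without the 2 lungs farthest from the median of Thbs4.

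Thbs1 and Col1a1 had r = 0.70 and rho 0.66 in vehicle lungs (adjusted permutation p of r 0.049). Without the 2 lungs farthest from the median of Col1a1, r was 0.54 (adjusted 0.23), and in nintedanib lungs it was 0.50 (adjusted 0.18). With Pf4, Thbs1 had r = -0.22 and -0.26 in the bleomycin groups (adjusted permutation p 0.6 and 0.49). Thbs3 showed negative coefficients with Thbs2 in both bleomycin groups, -0.35 and -0.42, and with Col1a1, -0.37 and -0.39, none past the threshold (adjusted permutation p from 0.26 to 0.32). Without the 2 lungs farthest from the median of Thbs2, the coefficients with Thbs2 were 0.39 and 0.01. Without the 2 farthest from the median of Col1a1, those with Col1a1 were 0.15 and 0.01. The negative signs thus rested on the lungs left out. With Thbs4, Thbs3 had r = -0.45 and -0.55 (adjusted permutation p 0.26 and 0.12), and -0.40 and -0.50 without the 2 lungs farthest from the median of Thbs3. With Ccn2, Thbs3 had r = -0.58 and -0.49 (adjusted permutation p 0.099 and 0.18), and -0.73 and -0.35 without the 2 lungs farthest from the median of Ccn2. The lungs left out thus differed between relations. Thbs1 had positive coefficients with Ccn2, 0.51 and 0.62 (adjusted permutation p 0.18 and 0.058). None of these relations of Thbs3, or of Thbs1 with Ccn2, passed the threshold.

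**Figure D4:**
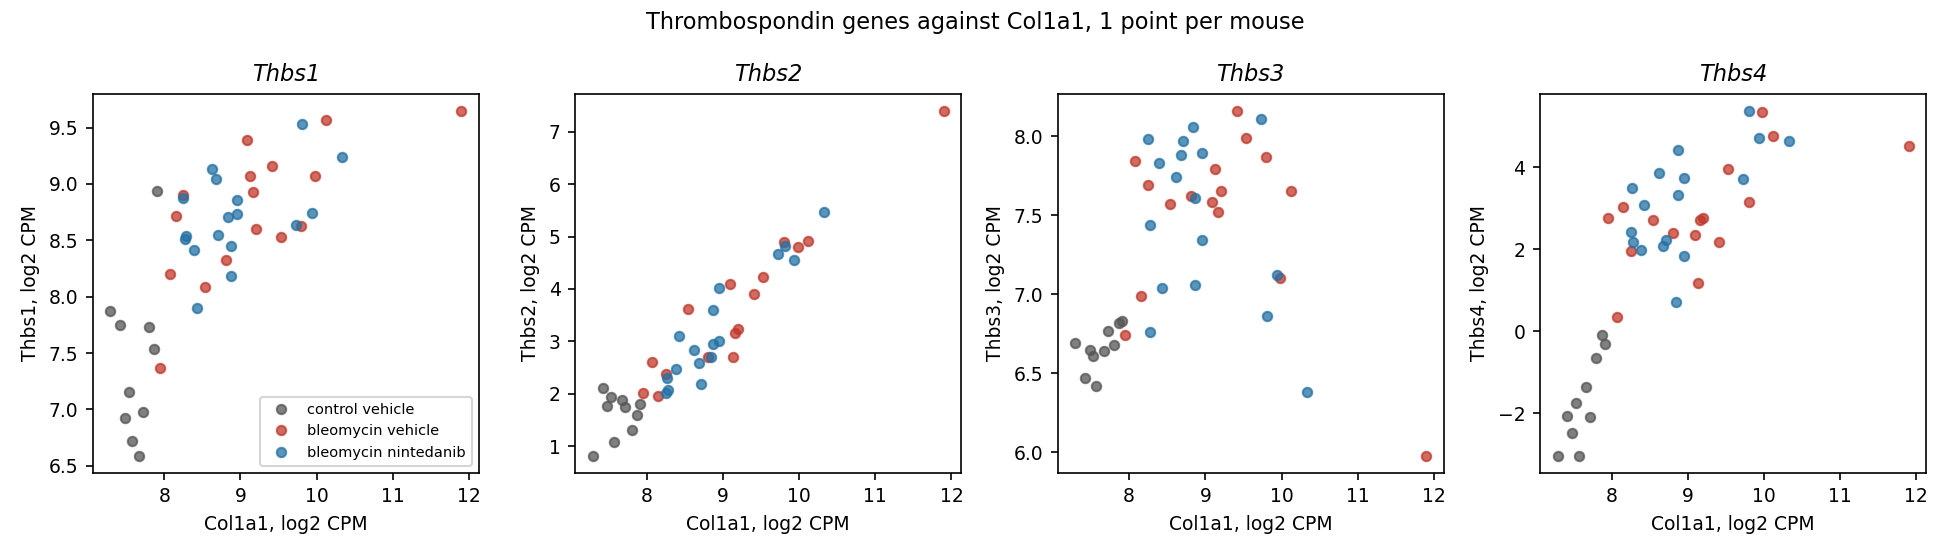
Log2 CPM of Thbs1, Thbs2, Thbs3 and Thbs4 (y axes) against log2 CPM of Col1a1 (x axes), 1 point per mouse, coloured by group. Thbs2 lies along a narrow line in vehicle (r = 0.95) and nintedanib (r = 0.94) lungs, Thbs3 shows no such line (r = -0.37 and -0.39), and the point farthest right in each panel is vehicle mouse 4.

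The genes whose pattern was most like each member were ranked by r over the 33 bleomycin lungs after group means were subtracted, among 12123 genes, as a description without a test. Thbs2 had the highest values: Serpine2, a protease inhibitor, and Cemip, a hyaluronan-degrading protein, at 0.95, and the collagen chains Col1a1 and Col1a2 at 0.94. Thbs3 followed with Enpep, which encodes aminopeptidase A, and Plxnb1, a semaphorin receptor, at 0.89, and Sema4f and Ccdc141 at 0.88. Thbs1 was most like Arid5a, an RNA-binding stabiliser of cytokine messages, at 0.83, Tnfrsf12a, the TWEAK receptor, and Pfkp, a glycolytic enzyme, at 0.82, and Entpd7 at 0.81. Thbs4 was most like Vstm4 (0.80), the collagen-binding proteoglycan Fmod (0.79), Kng2 (0.78) and Ndrg1 (0.77), and Comp, at lower values, like Cdkn1a, a cell cycle inhibitor, and Sh3bgr (0.65), the Wnt ligand gene Wnt7b (0.64) and Kng2 (0.62). No gene stood in the first 4 of 2 members except Kng2, which was in those of Thbs4 and Comp.

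The gene lists that follow were chosen with earlier results of these data known, so their counts and p-values are descriptions of these lungs. Among the receptors and surface partners of thrombospondins, 8 of 19 tested genes rose and 5 fell in vehicle lungs against control (median log2 fold change 0.13, all genes -0.01), beside 29.5% and 28.3% of all tested genes. Sdc1, a heparan sulfate proteoglycan, rose by 0.87 ± 0.07 (edgeR adjusted p 9.8e-14), and Itgav, the integrin chain that binds thrombospondin 1, by 0.64 ± 0.08 (adjusted p 1.1e-08). None of the 19 was called under nintedanib against vehicle, and the smallest p belonged to Cd36, the scavenger receptor bound by type 1 repeats (0.24 ± 0.08, edgeR adjusted p 0.064), and Scarb1 (-0.35 ± 0.12, adjusted p 0.069). Of 25 tested genes for other proteins with type 1 repeats, 6 rose and 7 fell with bleomycin, shares near those of all genes (29.5% and 28.3%; median -0.13, and -0.07 with 2 rising and 2 falling of 28 without the Adipoq libraries). Under nintedanib Adamtsl4 and Thsd4, both of elastic microfibrils, rose by 0.28 each, and Ccn4 fell by 0.85 and Thsd1 by 0.22 in log2 (edgeR adjusted p 0.014 to 0.039), 4 of 25 beside 7.31% of all genes. In number series A alone 3 rose and 0 fell, so neither falling call held there, and without the Adipoq libraries 1 of 28 rose and 2 fell.

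Genes that make, store, activate or receive TGF-beta rose in 15 and fell in 4 of 20 tested cases with bleomycin (median 0.62, beside 29.5% and 28.3% of all genes). Itgb6, whose integrin activates latent TGF-beta, rose by 1.40 ± 0.14 (edgeR adjusted p 5.7e-11), and the endothelial co-receptor gene Eng fell by 1.15 ± 0.14 in log2 (adjusted p 4.1e-09). Under nintedanib 0 of 20 rose and 3 fell, Nrros by 0.32, Tgfb1 by 0.24 and Tgfb2 by 0.22 in log2 (edgeR adjusted p 0.0053 to 0.031). Of all tested genes, 3.21% rose and 4.1% fell under nintedanib. TGF-beta response genes had 10 of 16 rising and 3 falling with bleomycin (median 1.03), among them Timp1 at 3.44 ± 0.39, while Smad7, an inhibitor induced by the pathway, fell by 0.70 (edgeR adjusted p 1.3e-09 and 1.5e-08). Under nintedanib 1 of 16 fell, Bhlhe40, by 0.32 in log2 (edgeR adjusted p 0.022), beside the 4.1% of all genes that fell. In number series A alone 1 of 16 rose and 0 fell, so the falling call did not hold there.

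Of proteases that cut thrombospondins or COMP and genes of their clearance, 10 of 14 tested rose and 3 fell with bleomycin (median 0.73, beside 29.5% and 28.3% of all genes), led by Adamts4 at 3.63 ± 0.53 and the metalloproteases Mmp19 at 2.78 ± 0.25 and Mmp2 at 2.36 ± 0.20 (edgeR adjusted p 2.3e-07 or less). Under nintedanib, where 3.21% of all genes rose and 4.1% fell, 2 rose, Mmp9 by 0.99 ± 0.27 and Mmp3 by 0.49 ± 0.11, and 3 fell, among them Adamts7, a COMP-cleaving protease, by 0.67 ± 0.16 in log2 (edgeR adjusted p 0.0099). Genes of tendon and cartilage matrix, where COMP and thrombospondin 4 are best known, had 9 of 14 tested rising and 2 falling with bleomycin (median 0.85, against the same shares of all genes): Cilp rose by 3.31 ± 0.37, Prg4 by 2.56 ± 0.41, and Chad fell by 1.74 ± 0.32 (edgeR adjusted p from 7.3e-10 to 9.6e-06). Under nintedanib 0 of 14 rose and 1 fell, the scarce Hapln1, by 0.88 in log2 (edgeR adjusted p 0.028).

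Fewer list members were called without the Adipoq libraries, where only 2 control lungs remain and fewer genes were called in all: 13.4% rose and 10.5% fell with bleomycin, and 1.62% rose and 1.81% fell under nintedanib. With bleomycin, 3 of 19 receptors rose and 4 fell (median 0.1), 8 of 20 TGF-beta ligand and activation genes rose and 4 fell (0.53), and 8 of 16 response genes rose and 3 fell (1.06). Of the proteases 5 of 14 rose (0.79), of the tendon and cartilage genes 4 of 15 (0.72) and of the activated fibroblast markers 5 of 15 (1.8), with none falling in these 3 lists, while 3 of 11 platelet markers fell (-0.99). Under nintedanib the same exclusion left 1 TGF-beta ligand or activation gene and 1 tendon and cartilage gene falling and 1 protease gene rising, with no call among receptors, response genes and activated fibroblast markers. In number series A alone 501 of all tested genes rose and 619 fell under nintedanib. There 2 TGF-beta ligand or activation genes fell, 1 response gene rose, and 1 protease gene rose and 1 fell. Among receptors 1 rose and 1 fell, and 1 activated fibroblast marker fell. No tendon and cartilage gene or platelet marker was called in that series.

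Markers of cells that could carry these genes were counted as well. Of all tested genes, 29.5% rose and 28.3% fell with bleomycin, and 3.21% rose and 4.1% fell under nintedanib. Of 15 activated fibroblast markers, 11 rose and 0 fell with bleomycin (median 1.48), and under nintedanib 0 rose and 1 fell, the PDGF receptor gene Pdgfrb, by 0.40 ± 0.12 in log2 (edgeR adjusted p 0.03; median of the list -0.43). These values leaned on vehicle mouse 4: without it, 10 of 15 rose with bleomycin (median 0.96), and under nintedanib none was called (median -0.07). Platelet markers, of interest because platelets store thrombospondin 1, fell in 11 of 11 tested genes with bleomycin (median -1.31). The part of platelets in the Thbs1 level was not tested. The summed level of the platelet markers was 72.9 to 176 CPM in control, 38.4 to 143 in vehicle and 52.8 to 122 in nintedanib lungs, and Gp1bb was at 0 in all. Under nintedanib 2 of 11 platelet markers rose, Ppbp and Gp9 (edgeR adjusted p 0.032 and 0.046), and without the Adipoq libraries 0 did. Of 4 tested airway cartilage markers, 2 rose and 1 fell with bleomycin, and their summed level over 13 genes was 14.3 to 45.7 CPM in control, 10.5 to 21 in vehicle and 10.8 to 44.4 in nintedanib lungs, with Ucma at 0 in control lungs.

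With bleomycin, 9 of 9 tested adipocyte markers, 8 of 10 airway epithelium markers, 7 of 10 heart and skeletal muscle markers and 6 of 10 smooth muscle and pericyte markers fell, 1 airway and 1 smooth muscle marker rose, and of 7 mesothelium markers 2 rose and 1 fell. Beside these counts, 29.5% of all tested genes rose and 28.3% fell with bleomycin, and 3.21% rose and 4.1% fell under nintedanib. Under nintedanib 6 of 9 adipocyte, 4 of 10 airway epithelium and 3 of 10 smooth muscle and pericyte markers rose, 2 of the last fell, and of the heart and mesothelium markers none was called. Without the Adipoq libraries, 1 of 4 tested adipocyte, 1 of 10 airway epithelium, 3 of 10 heart and skeletal muscle and 1 of 10 smooth muscle and pericyte markers fell with bleomycin, and the airway median was -0.04 in place of -1.28. The shares of all tested genes in that fit were 13.4% rising and 10.5% falling with bleomycin, and 1.62% and 1.81% under nintedanib. Under nintedanib the same exclusion left 0 of 4 adipocyte and 0 of 10 airway epithelium markers called, and 1 of 10 smooth muscle and pericyte markers rising with none falling (median 0.01 in place of 0.23). The part of these cells in the members' levels was not tested. Values without the Adipoq libraries are given above for vehicle over control, and for Thbs1, Thbs3 and Comp for nintedanib over vehicle. Those of Thbs2 and Thbs4 for nintedanib over vehicle are not given. The libraries left out include nintedanib mouse 8, the highest of its group in Thbs2.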

How the data were processed

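The authors deposited 1 table of whole-number read counts per gene and library, from polyA RNA of the inferior lung lobe in directional, single-end libraries, per the labels' protocols. The tools named, per the submitters' processing notes, were R 3.6.0 and STAR 2.7.0f with the build GRCm38, without a stated role. No source used here names the counter, its strand mode, the gene models or a filter. Symbols, coordinates and exon lengths came from the GENCODE M21 annotation of GRCm38, which matched 21938 of 21938 identifiers, and promoters from RefSeq (GRCm38.p6).

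The function filterByExpr (a count of at least 10 and a total of at least 15) retained 14836 genes holding 99.96% of all counts. Library depth lay between 13138281 and 19111457 counts, and low counts limit precision most for Comp and for Thbs4 in control lungs. The median biological coefficient of variation was 13.6%. Counts were tested with edgeR's two-sided quasi-likelihood F test (TMM, robust dispersion, 1 coefficient per group over 43 libraries) with Benjamini-Hochberg adjustment over all tested genes at 0.05. A standard error is the log2 fold change divided by the root of F. Log2 CPM values used a prior count of 2. Relations within groups used 100000 permutations. Nothing states that libraries came from separate litters or cages, so the p-values describe variation among these libraries alone.

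The 5 members and the 15 gene lists (202 genes, 201 in the table, 179 tested) were chosen with earlier results of these data known. Named genes were the members, for each member the 4 genes most alike among those averaging log2 CPM 2 or more, up to 4 called members of each list per comparison (or up to 2 with the smallest p), and Col1a1, Ccn2 and Pf4; Mtx1, Adipoq, Col2a1, Acan, Grem1 and Cthrc1 outside the relations were named after their values were seen. Alternatives were other scalings, no filter, DESeq2, the 2 compared groups alone, number series of library names, libraries without Adipoq and each mouse left out. The edgeR test, the permutation test and the ranking by likeness were each run on simulated data. Those data were not built with an outlying lung such as vehicle mouse 4 or with Adipoq libraries. Software versions were DESeq2 1.42.0, edgeR 4.0.16 with limma 3.58.1 in R 4.3.3, and Python 3.11.15, NumPy 2.4.6, pandas 2.3.3, SciPy 1.17.1 and matplotlib 3.10.9.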

Additional observations from a re-analysis of the deposited data

How the results depend on the processing

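No member was called under nintedanib against vehicle in any of 205 alternatives. With each mouse left out in turn, the log2 fold change of nintedanib over vehicle ran from -0.18 to -0.04 for Thbs1, -1.11 to -0.07 for Thbs2, -0.07 to 0.04 for Thbs3, 0.00 to 0.51 for Thbs4 and -0.31 to 0.03 for Comp. The sign turned for Thbs3 in number series A alone (0.04), with the series as a term (0.01), without the Adipoq libraries (0.19) and in 15 of 33 fits with 1 mouse left out, and for Comp in 3 such fits and for Thbs4 in 1 (at 0.00); the cause was not tested. Against control, leaving out 1 mouse gave 1.17 to 1.52, 2.10 to 3.01, 0.84 to 0.93, 4.98 to 5.67 and 1.06 to 1.30 for Thbs1, Thbs2, Thbs3, Thbs4 and Comp in vehicle lungs, and 1.05 to 1.40, 1.82 to 2.13, 0.82 to 0.95, 5.30 to 5.89 and 0.92 to 1.26 in nintedanib lungs. The 1084 genes called under nintedanib became 640 with only the 2 groups compared, 525 without the Adipoq libraries and 696 without nintedanib mouse 1 (810 without vehicle mouse 4), the last 2 chosen after seeing the data; without the Adipoq libraries the counts against control, 8585 and 7888, became 3654 and 3297 on 2 control lungs. Scaled by library totals, higher and lower calls were 3736 and 4882 for vehicle (4381 and 4204 with TMM) and 3250 and 4844 for nintedanib (4171 and 3717). Of 75 relations, 10 passed without TMM factors against 6 with them. Without the Adipoq libraries no value was obtained for Thbs4 against control, since the remaining control libraries held 0 of its reads. No paired analysis was possible because the labels carry library numbers and no replicate numbers, so nothing pairs mice across groups. Depth limits Comp and control Thbs4, with 1 to 14 and 0 to 13 reads a library.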
